A study of Arundo donax with 9 samples.

Results

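Peroxisomes of plant cells shorten fatty acids by beta-oxidation, and the unigenes described here carry the names of the enzymes of that route, of the glyoxylate cycle and the gluconeogenic step that follow it, and of the proteins that build the peroxisome. A unigene is a cluster of assembled transcripts. A unigene was taken as a member where the text of its best Swiss-Prot hit held one of 9 terms, namely long chain acyl-CoA synthetase, acyl-coenzyme A oxidase, peroxisomal fatty acid beta-oxidation multifunctional, 3-ketoacyl-CoA thiolase, isocitrate lyase, malate synthase, phosphoenolpyruvate carboxykinase, peroxisome biogenesis and peroxisomal membrane protein. The terms found 368 of the 255855 unigenes listed in any library, under 45 Swiss-Prot names. Of these, 11 are 2-isopropylmalate synthases, plastid enzymes of leucine synthesis that share only the letters "malate synthase", and 357 remain without them. Among the 368 members, 311 had enough reads to be tested, 57 had not, and 242 were listed in all 9 libraries. The members too low to be tested were 19 LACS, 14 biogenesis, 8 ACX, 6 MFP, 6 membrane protein, 3 isopropylmalate synthase and 1 MLS unigene, named in full below.

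The libraries are poly(A) RNA-seq of fully expanded leaves of giant reed (Arundo donax), a perennial grass grown here from rhizomes in pots. All plants belong to a single clone, G2, so the values describe that genotype only. The conditions compared had 3 replicate libraries each. G2-CK plants were irrigated weekly without salt, G2-S3 plants (severe salt) with 250 mM NaCl, and G2-S4 plants (extreme salt) with 420 mM NaCl. These concentrations are those of the sample labels, and the study's methods state slightly different ones.

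In beta-oxidation a long chain acyl-CoA synthetase (LACS) joins a fatty acid to coenzyme A, an acyl-CoA oxidase (ACX) takes the first oxidation step and releases hydrogen peroxide, the multifunctional protein (MFP) hydrates and oxidises the product again, and a 3-ketoacyl-CoA thiolase (KAT) splits off acetyl-CoA. Isocitrate lyase (ICL) and malate synthase (MLS) are the pair of enzymes particular to the glyoxylate cycle, which turns acetyl-CoA into 4-carbon acids, and phosphoenolpyruvate carboxykinase (PEPCK) converts oxaloacetate to phosphoenolpyruvate, from which sugars can be made. The complete set is best known from oil-storing seedlings and from senescing leaves, and PEPCK also serves as a decarboxylase in the leaves of some C4 grasses. PEX proteins import the enzymes and build the organelle, and the PMP11 proteins take part in its elongation and division.

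The libraries held fitted totals of 23.01 to 25.69 M reads (M, the prefix mega) and 154642 to 167604 listed unigenes, and every file lists only unigenes above 0.3 FPKM (fragments per kilobase and M reads). A unigene without an entry is called unlisted below. Its level lies between 0 and that limit. The leaf identity of the samples was checked with the names of light-harvesting proteins, Rubisco small subunits and the Photosystem II 10 kDa polypeptide. Their summed level in CPM (counts per M reads) ranged over 5990 to 6850 CPM among G2-CK libraries, 4870 to 5330 CPM among G2-S3 libraries and 1980 to 2370 CPM among G2-S4 libraries. Of their 59 tested unigenes, 2 were higher (3.39%) and 33 lower (55.9%) in G2-S4 versus G2-CK, against 13.1% and 12.7% of all unigenes. Leaf RNA is a mixture of cells, so fewer cells of a type and less RNA per cell cannot be told apart. The reads of near-identical unigenes of 1 name may be divided among them by the counting, so the split between copies is uncertain. Each name was therefore also tested as the sum of its unigenes in CPM.

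More members rose than fell in G2-S4 relative to either other group. In G2-S4 versus G2-CK, 70 of the 311 members tested were higher (22.5%) and 32 lower (10.3%), where 13.1% of all 136985 unigenes tested were higher and 12.7% lower. In G2-S4 versus G2-S3, 48 members were higher (15.4%) and 14 lower (4.5%), against 6.42% and 6.10% of all unigenes. The G2-S3 versus G2-CK comparison called 23 members higher (7.4%) and 8 lower (2.57%), against 2.73% and 1.96% of all unigenes, and 13 of those 23 were PEPCK unigenes. The median log2 fold change of the members was 0.06 in G2-S4 versus G2-CK, 0.11 in G2-S4 versus G2-S3 and 0.00 in G2-S3 versus G2-CK, beside 0.00, 0.00 and 0.01 over all unigenes. A call is an adjusted p under 0.05 in edgeR's quasi-likelihood test. Without the isopropylmalate synthases the counts were 70 higher and 30 lower, 48 and 14, and 23 and 7, of 303 tested. Some calls rest on the value taken for unlisted libraries. Members listed in all G2-S4 libraries and unlisted in the whole other group made 5 of the higher calls against G2-CK and 6 against G2-S3. All 3 ICL unigenes are among these. Members unlisted in all G2-S4 libraries and listed throughout the other group made 2 lower calls in each comparison. In G2-S3 versus G2-CK 1 higher call was of this kind.

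By name, 16 of the 44 names tested were higher and 7 lower in G2-S4 versus G2-CK, where 31.6% of all 12233 Swiss-Prot names tested were higher and 20.0% lower. With DESeq2 and its own scaling, 15 member names were higher and 12 lower in that comparison. In G2-S4 versus G2-S3, 14 were higher and 5 lower, against 20.7% and 14.0% of all names. In G2-S3 versus G2-CK, 6 were higher and 4 lower, against 10.5% and 5.51%. The higher names in both comparisons of G2-S4 include ICL, whose sum was 0 CPM in every library of the other groups. The name shares of the members, 36.4% higher and 15.9% lower in G2-S4 versus G2-CK, lay near those of all names. The calls differed by role. The ICL and MLS unigenes had higher levels in every G2-S4 library than in any G2-CK library. Of the tested unigenes, all 13 of PEPCK, 9 of 16 of MFP and 8 of 17 of KAT were higher in G2-S4 versus G2-CK with none lower, while the peroxisome biogenesis names had 3 higher and 6 lower of 85.

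Isocitrate lyase was listed in every G2-S4 library and in none of the others. The most abundant of its 3 unigenes, Cluster-14027.17858, had 129.42, 152.02 and 29.83 FPKM in G2-S4 replicates 1 to 3 and was unlisted in all G2-S3 and G2-CK libraries. Taking the 0.3 FPKM limit for the unlisted libraries, its mean in G2-S4 was higher by at least 345-fold, and even the lowest G2-S4 library was higher by at least 99.4-fold. No p-value is given for ICL, since every value outside G2-S4 lies under the limit. A second unigene, Cluster-14027.18766, had 46.54, 67.19 and 12.56 FPKM in G2-S4, at least 140-fold above the limit on average. The third, Cluster-14027.18355, had 4.47, 2.58 and 0.41 FPKM there, at least 8.28-fold above it. All 3 unigenes were lowest in G2-S4 replicate 3. Their summed level was 354, 433 and 82.3 CPM in G2-S4, a 5.26-fold span between replicates, and 0 CPM in the 6 other libraries.

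Because 1 library stood apart within G2-S4, values of other transcripts in that group are given here. STAY-GREEN, which acts in chlorophyll breakdown and marks senescing leaves, was also lowest in that replicate among the G2-S4 libraries, with 192, 108 and 109 CPM in G2-CK, 78.3, 74.6 and 117 CPM in G2-S3 and 705, 625 and 377 CPM in G2-S4. The other senescing leaf markers did not share 1 order in G2-S4. Pheophytinase (946, 848 and 666 CPM) and STAY-GREEN LIKE (17.9, 16.5 and 16.0 CPM) were also lowest in replicate 3. SAG12 (157, 192 and 209 CPM) and SRG1 (135, 131 and 153 CPM) were highest there, and SAG39 (408, 303 and 381 CPM) was lowest in replicate 2. Transcripts whose best protein hit lies outside the green plants (384 unigenes) summed to 31.5 to 46.2 CPM in G2-CK, 32.8 to 35.7 CPM in G2-S3 and 444, 270 and 193 CPM in G2-S4. None of the members was among them. All 367 members with a hit in the Nr protein database matched a green plant, and 168 matched a Setaria species. The part of these transcripts in the ICL values was not tested.

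**Figure D1:**
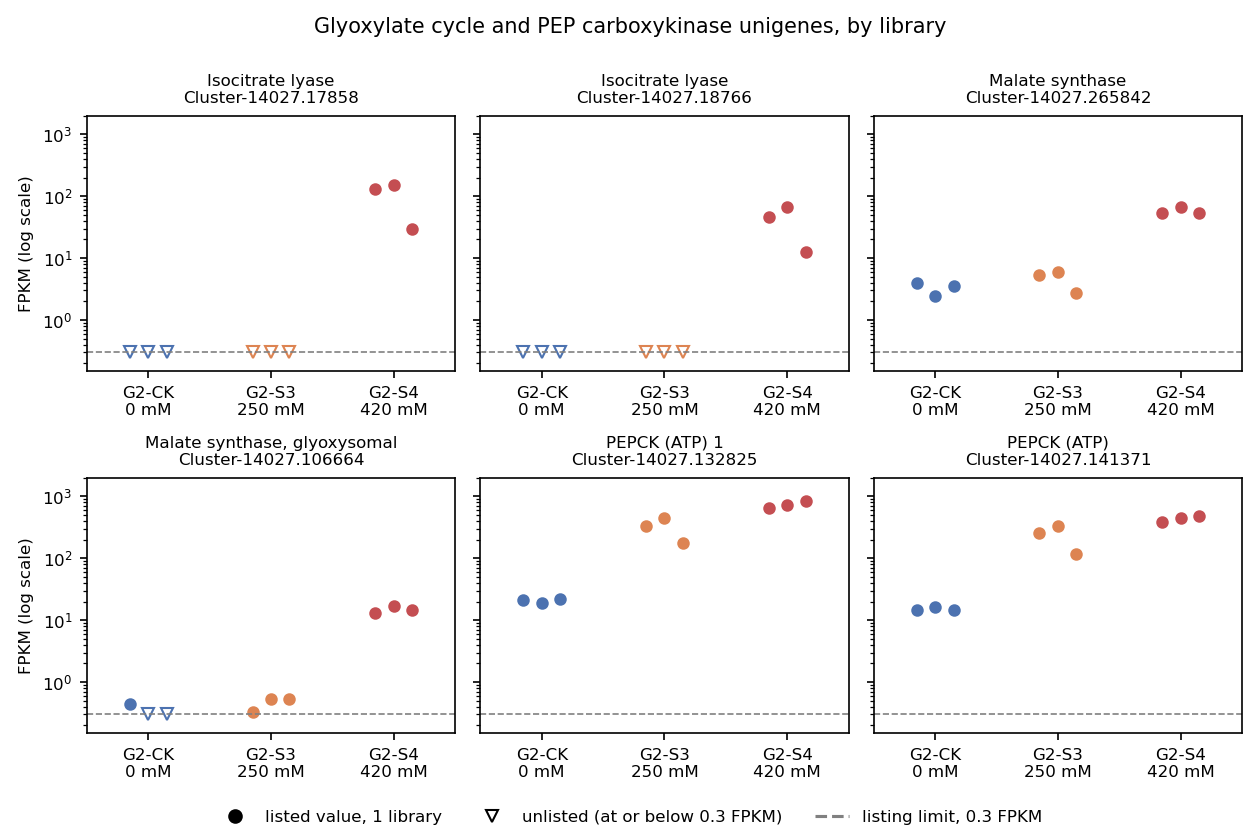
FPKM (log axis) of the 2 most abundant isocitrate lyase unigenes, 2 malate synthase unigenes and 2 PEPCK unigenes in each of the 9 libraries, ordered by salt dose. Filled points are listed values and open triangles mark unlisted values at the 0.3 FPKM limit. ICL has listed values only in G2-S4, MLS is high only in G2-S4, and PEPCK is high in both salt groups.

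Malate synthase, the next enzyme of the cycle, was already listed without salt and was many-fold higher in G2-S4. The most abundant unigene, Cluster-14027.265842, had 54.13, 67.26 and 53.73 FPKM in G2-S4, against 3.95, 2.44 and 3.56 FPKM in G2-CK. The groups did not overlap, and the log2 fold change was 4.28 (SE 0.31, adjusted p = 6.39e-05). In G2-S3 it had 5.42, 5.87 and 2.76 FPKM, which overlapped with G2-CK (log2 fold change 0.57, adjusted p = 0.321). The lowest G2-S3 value was that of replicate 3, and without that library the difference from G2-CK was 0.85 with an adjusted p of 0.0486. G2-S4 exceeded G2-S3 by 3.71 on the log2 scale.

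The glyoxysomal form, known by a maize entry, was likewise high in G2-S4. Cluster-14027.106664 had 0.44 FPKM in G2-CK replicate 1 and was unlisted in the other G2-CK libraries, and it had 0.33, 0.53 and 0.53 FPKM in G2-S3 and 12.96, 16.99 and 14.37 FPKM in G2-S4. Its log2 fold change in G2-S4 was 5.06 against G2-S3 (adjusted p = 4.33e-05). Against G2-CK the fitted value was 5.53, which depends on the value taken for the unlisted libraries. Summed over its 4 unigenes this form averaged 0.918 ± 0.335 CPM in G2-CK, 0.676 ± 0.169 CPM in G2-S3 and 24.5 ± 4.1 CPM in G2-S4 (SD, n = 3 each). Cluster-14027.264686 had 3.23, 4.82 and 2.37 FPKM in G2-S4 and was unlisted elsewhere, so its mean was higher there by at least 11.5-fold. Cluster-14027.249398 had 0.53, 0.72 and 0.39 FPKM in G2-CK, was unlisted in G2-S3, and had 4.46, 4.50 and 2.51 FPKM in G2-S4, a mean above that of G2-S3 by at least 12.7-fold. Neither overlapped between G2-S4 and another group. The fourth glyoxysomal unigene, Cluster-14027.23463, had too few reads to be tested, with 0.40, 0.41 and 0.45 FPKM in G2-CK, 2.44 and 2.57 FPKM in G2-S3 replicates 1 and 2, and 1.37, 3.82 and 0.84 FPKM in G2-S4. All MLS unigenes together made 127 ± 17.9 CPM in G2-S4, against 8.5 ± 3.06 CPM in G2-S3 and 6.22 ± 1.36 CPM in G2-CK.

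PEPCK took the most reads of these enzymes in both salt groups and, unlike ICL, was high at both doses. All 13 PEPCK unigenes were higher than in G2-CK at either dose, with a median log2 fold change of 3.83 in G2-S4 and 3.41 in G2-S3. Among all unigenes, 13.1% were higher than in G2-CK in G2-S4 and 2.73% in G2-S3. Their sum was 302 ± 39.6 CPM in G2-CK, 3110 ± 1430 CPM in G2-S3 and 4680 ± 458 CPM in G2-S4, a ratio of 15.5 for G2-S4 and 10.3 for G2-S3 over G2-CK. The unigene named PEPCK 1, Cluster-14027.132825, had 21.58, 18.92 and 22.31 FPKM in G2-CK, 336.53, 453.75 and 175.44 FPKM in G2-S3 and 650.94, 732.92 and 847.54 FPKM in G2-S4. No library of one group reached the range of another. The log2 fold change against G2-CK was 5.28 (SE 0.35, adjusted p = 4.53e-05) in G2-S4 and 4.01 (SE 0.33, adjusted p = 0.00166) in G2-S3. The steepest change was that of Cluster-14027.132828, a low copy with 0.69, 0.53 and 0.34 FPKM in G2-CK, 20.38, 19.69 and 7.18 FPKM in G2-S3 and 33.29, 36.90 and 35.42 FPKM in G2-S4 (log2 fold change 6.22 in G2-S4 and 4.98 in G2-S3).

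Only some PEPCK copies were called higher at extreme than at severe salt, and no test compared the copies with each other. In G2-S4 versus G2-S3, 2 of the 3 PEPCK names were higher, beside 20.7% of all names, and 4 of the 13 unigenes, beside the 6.42% of all unigenes, with a median of 0.90 over the 13. PEPCK 1 was 1.27 higher on the log2 scale (SE 0.29). Among all names the adjusted p was 0.0095 and the call was kept in each of the 9 fits that left out 1 library, with values of 0.97 to 1.62. Among all unigenes the same values gave 0.0234, a call that was lost when replicate 1 of G2-S3 or replicate 2 or 3 of G2-S4 was left out. PEPCK 2 was 0.90 higher (SE 0.26) with an adjusted p of 0.0253 among all names, a call that was lost without replicate 2 or 3 of G2-S4. Among all unigenes the same values, those of Cluster-14027.132827, had an adjusted p of 0.0616 and passed in none of the 9 fits that left out 1 library. Cluster-14027.153145, a low copy, had 5.04, 11.09 and 8.72 FPKM in G2-S4, against 4.74, 3.25 and 1.85 FPKM in G2-S3 (log2 fold change 1.41, adjusted p = 0.0347), and passed in 2 of the 9 fits that left out 1 library. Cluster-14027.141371 had 392.98, 447.93 and 480.10 FPKM in G2-S4, against 253.58, 336.71 and 115.58 FPKM in G2-S3, and its difference of 0.98 did not pass (adjusted p = 0.0801). The copies under the general name PEPCK (ATP) summed to 318, 248 and 260 CPM in G2-CK, 2830, 3830 and 1350 CPM in G2-S3 and 3330, 3670 and 4000 CPM in G2-S4. G2-S4 and G2-S3 overlapped in that sum, and the difference of 0.46 (SE 0.30) had an adjusted p of 0.271. G2-S3 replicate 3 was the lowest G2-S3 library for all 3 PEPCK names, with a 2.84-fold, 2.72-fold and 2.18-fold span between replicates. The part of that library in the difference between the doses was not tested beyond the fits that left it out.

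Among the fatty acid activating synthetases, the sums of LACS 6 and LACS 8 rose in G2-S4. LACS 6, a peroxisomal form that activates fatty acids for beta-oxidation in Arabidopsis, was the most abundant and summed to 229, 253 and 241 CPM in G2-CK, 327, 386 and 271 CPM in G2-S3 and 490, 535 and 483 CPM in G2-S4. The G2-S4 libraries lay above all others (2.09-fold over G2-CK, log2 fold change 1.06, SE 0.12, adjusted p = 0.000131). G2-S3 also lay above G2-CK in every library, by 0.44 (adjusted p = 0.0377), a call that passed in 2 of the 9 fits that each left out 1 library, namely when replicate 3 of G2-S3 or replicate 3 of G2-S4 was the one left out. Of its 10 tested unigenes, 5 were higher in G2-S4 versus G2-CK (50.0%, against 13.1% of all unigenes) and none lower. They were led by Cluster-14027.141351 with 75.02, 85.81 and 80.55 FPKM in G2-S4, against 37.99, 47.58 and 46.74 FPKM in G2-CK. LACS 8 was 1.62-fold higher in G2-S4 (log2 fold change 0.70, adjusted p = 0.000368).

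None of the other synthetases was higher in its sum. LACS 4 had the most unigenes (27), and none of its 20 tested unigenes was called in G2-S4 versus G2-CK. Among them, Cluster-14027.165798 had 1.47, 3.48 and 3.05 FPKM in G2-CK, 1 listed value, 0.77 FPKM, in G2-S3, and 2.18, 2.54 and 2.30 FPKM in G2-S4. It was higher in G2-S4 than in G2-S3 (adjusted p = 0.00635) and lower in G2-S3 than in G2-CK (adjusted p = 0.0149), and the second of these calls was lost without G2-CK replicate 2 or 3 or G2-S3 replicate 1 or 2. The sums of LACS 4, 9, 5 and 3 differed from G2-CK by -0.05, 0.11, -0.02 and 0.01 in G2-S4 and did not pass. LACS 1, which in Arabidopsis serves wax and cutin synthesis, was lower in G2-S4 by 0.49 on the log2 scale in its sum (18.2 ± 3.56 CPM in G2-S4, against 25.6 ± 4.43 CPM in G2-CK, adjusted p = 0.0323). That call passed in 5 of the 9 fits that left out 1 library and was lost without G2-CK replicate 2 or 3 and without G2-S4 replicate 1 or 2. Its most abundant unigene, Cluster-14027.165856, had 9.20, 4.67 and 8.50 FPKM in G2-S4, against 15.17, 16.14 and 21.54 FPKM in G2-CK. Cluster-14027.158101 and Cluster-14027.158102 were unlisted in all G2-S4 libraries, at least 3.11-fold and 2.31-fold lower than in G2-CK, and Cluster-14027.242254 was at least 4.46-fold lower than in G2-S3. The calls of Cluster-14027.158101 and Cluster-14027.158102 in G2-S4 versus G2-CK were lost without any 1 of the G2-S4 libraries, and that of the first also without G2-CK replicate 1 or 2. Other LACS 1 unigenes were higher in G2-S4. Of 7 tested, 2 were higher (28.6%) and 3 lower (42.9%) in G2-S4 versus G2-CK, against 13.1% and 12.7% of all unigenes. Cluster-14027.262710 had 2.29, 3.91 and 6.10 FPKM in G2-S4, against 0.70 and 0.54 FPKM in G2-CK replicates 1 and 3 and no listed value in replicate 2 (log2 fold change 3.10, adjusted p = 0.00309). Cluster-14027.39705 had 2.44, 2.03 and 2.82 FPKM in G2-S4, against 0.97, 0.96 and 1.95 FPKM in G2-CK (1.06, adjusted p = 0.019), a call that was lost without G2-CK replicate 1 or 2 or G2-S4 replicate 1 or 3. Both were chosen after their values were seen. In all, 13 of 60 tested LACS unigenes were higher (21.7%) and 4 lower (6.67%) in G2-S4 versus G2-CK, against 13.1% and 12.7% of all unigenes, with a median of 0.18.

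The acyl-CoA oxidases split by isoform. ACX 4, a short-chain oxidase in Arabidopsis, summed to 215, 206 and 209 CPM in G2-CK, 193, 202 and 226 CPM in G2-S3 and 354, 362 and 291 CPM in G2-S4. It was higher in G2-S4 than in either other group, and those groups overlapped with each other (log2 fold change against G2-CK 0.68, SE 0.10, adjusted p = 0.000503). ACX 1, which acts on long-chain substrates and also in jasmonate synthesis, had 159, 150 and 152 CPM in G2-CK, 208, 231 and 190 CPM in G2-S3 and 256, 250 and 250 CPM in G2-S4. Each group lay apart from the next, and ACX 1 passed at both doses (0.72 in G2-S4, adjusted p = 0.000117, and 0.45 in G2-S3, adjusted p = 0.00899). The step of 0.27 between the doses (adjusted p = 0.0281) passed in 4 of the 9 fits that left out 1 library and was lost without G2-CK replicate 3, G2-S3 replicate 1 or 3, or G2-S4 replicate 1 or 2.

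ACX 3, a medium-chain oxidase, went the other way, with 75.1 ± 6.19 CPM in G2-S4, against 91.3 ± 4.09 CPM in G2-CK (log2 fold change -0.28, adjusted p = 0.0135). ACX 2 had 24.1 ± 1.27 CPM in G2-CK, 16.9 ± 2.49 CPM in G2-S3 and 26.9 ± 5.17 CPM in G2-S4. It was higher in G2-S4 than in G2-S3 (0.67, adjusted p = 0.00903) and did not pass against G2-CK. Both of its differences turned negative when its most abundant unigene was left out of the sum, at -0.16 against G2-S3 and -0.81 against G2-CK. Over all ACX unigenes, 10 of 38 were higher (26.3%) and 6 lower (15.8%) in G2-S4 versus G2-CK, against 13.1% and 12.7% of all unigenes, with a median of 0.06.

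**Figure D2:**
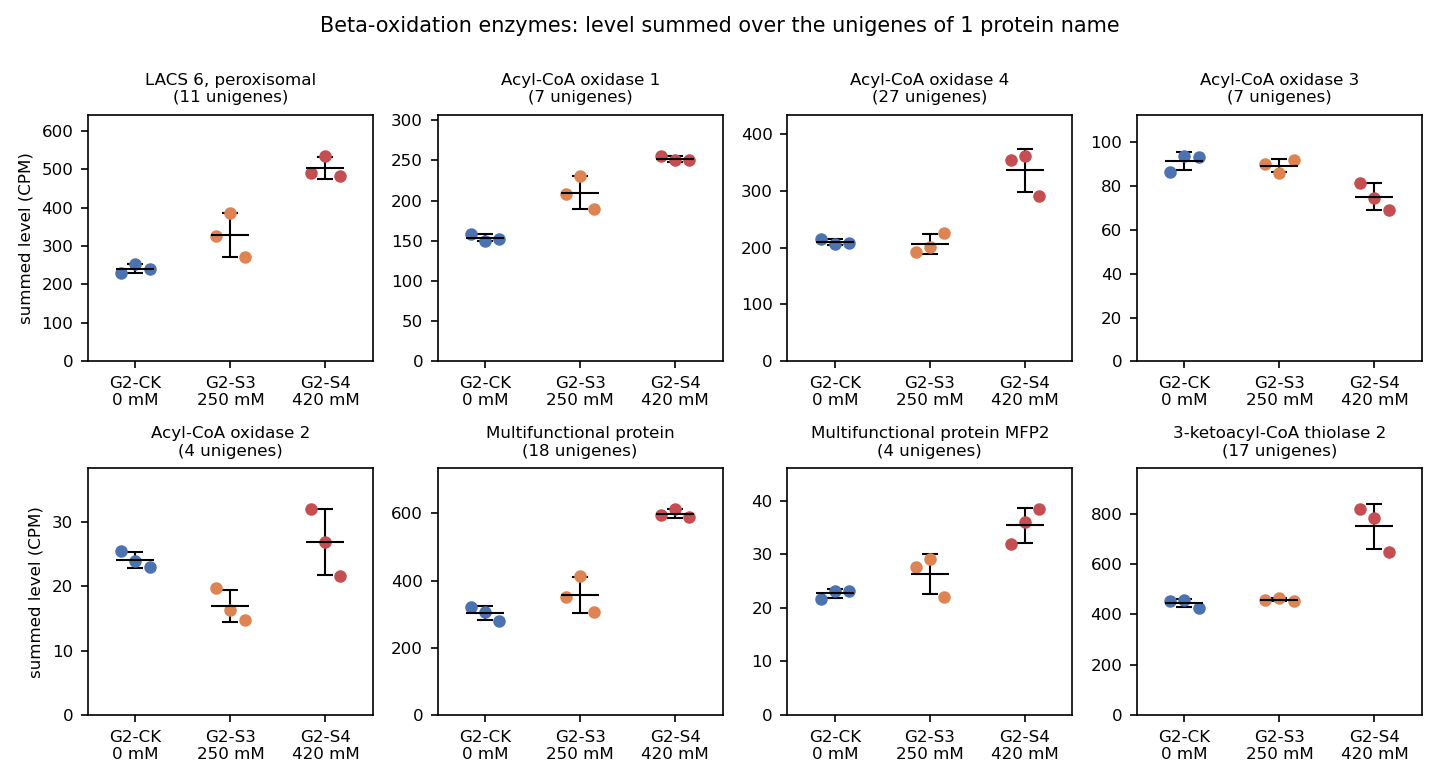
Summed CPM of 8 beta-oxidation names in each library, ordered by salt dose. Points are libraries, and lines with bars are the mean ± SD of 3 libraries. LACS 6, ACX 4, ACX 1, the multifunctional protein and thiolase 2 lie higher in all 3 G2-S4 libraries than in any G2-CK library.

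The next steps of the spiral rose together at extreme salt. The multifunctional protein summed to 321, 307 and 280 CPM in G2-CK, 350, 414 and 308 CPM in G2-S3 and 596, 612 and 588 CPM in G2-S4. G2-S4 lay above all other libraries (1.98-fold over G2-CK, log2 fold change 0.99, SE 0.11, adjusted p = 0.000113), and G2-S3 overlapped with G2-CK (0.24, adjusted p = 0.164). Without G2-S3 replicate 3 the G2-S3 difference was 0.34 with an adjusted p of 0.0339. The leading unigene, Cluster-14027.147471, had 89.07, 84.46 and 75.93 FPKM in G2-CK, 97.89, 110.83 and 88.00 FPKM in G2-S3 and 157.34, 161.27 and 163.56 FPKM in G2-S4. MFP2, a second form, was 1.56-fold higher in G2-S4 (35.4 ± 3.26 CPM, against 22.7 ± 0.855 CPM in G2-CK, adjusted p = 0.00161). Of the 16 tested unigenes of both forms, 9 were higher in G2-S4 versus G2-CK (56.2%, against 13.1% of all unigenes) and none was lower in any comparison, and their median in G2-S4 versus G2-CK was 0.94.

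Thiolase 2, the only thiolase name found, closed the spiral with a similar pattern. It summed to 452, 457 and 426 CPM in G2-CK, 458, 465 and 454 CPM in G2-S3 and 818, 782 and 650 CPM in G2-S4. The G2-S3 and G2-CK sums differed by 0.04 (adjusted p = 0.789), and G2-S4 was 1.69-fold over G2-CK (log2 fold change 0.76, SE 0.09, adjusted p = 0.000179). Its most abundant unigene, Cluster-14027.211982, had 34.97, 45.92 and 43.15 FPKM in G2-CK, 44.18, 42.35 and 41.40 FPKM in G2-S3 and 91.79, 93.13 and 77.31 FPKM in G2-S4 (1.21 in G2-S4, adjusted p = 0.000236). Of its 17 unigenes, 8 were higher (47.1%, against 13.1% of all unigenes) and none lower in G2-S4 versus G2-CK, with a median of 0.58. By reads over all members of a step, KAT was at 750 ± 88.2 CPM in G2-S4, MFP at 634 ± 12.3, ACX at 690 ± 49.9 and LACS at 1030 ± 33.4, against 445 ± 16.9, 326 ± 20.3, 480 ± 6.11 and 708 ± 12.8 CPM in G2-CK.

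Unigenes of 1 name did not always move alike. The 3 abundant ACX 1 unigenes rose in G2-S4, with 53.00, 51.98 and 53.36 FPKM in G2-S4 for Cluster-14027.150432, against 29.01, 26.29 and 28.66 FPKM in G2-CK (adjusted p = 0.000111), and log2 fold changes of 0.61 for Cluster-14027.150440 and 0.78 for Cluster-14027.150423. In contrast Cluster-14027.109303, also annotated as ACX 1, had 4.60, 7.18 and 7.61 FPKM in G2-CK, 1.23, 1.85 and 3.08 FPKM in G2-S3, and 0.33 and 0.38 FPKM in G2-S4 replicates 1 and 2, and was unlisted in G2-S4 replicate 3 (log2 fold change -4.11 in G2-S4, adjusted p = 0.000189). Within ACX 4, 7 of 19 tested unigenes were higher (36.8%) and 1 lower (5.26%) in G2-S4 versus G2-CK, against 13.1% and 12.7% of all unigenes. Cluster-14027.187378 had 8.79, 10.42 and 11.04 FPKM in G2-CK, 13.44, 13.74 and 15.87 FPKM in G2-S3 and 40.44, 47.16 and 37.63 FPKM in G2-S4 (2.19, adjusted p = 3.17e-05). The lower one, Cluster-14027.123972, had 7.56, 8.07 and 6.96 FPKM in G2-S4, against 11.04, 11.97 and 13.29 FPKM in G2-CK (-0.55, adjusted p = 0.0323). This call was lost when any 1 library of G2-CK or G2-S4 was left out. Cluster-14027.109303, Cluster-14027.150440, Cluster-14027.150423 and Cluster-14027.187378 were chosen after their values were seen, as were the less abundant ICL and MLS unigenes.

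**Figure D3:**
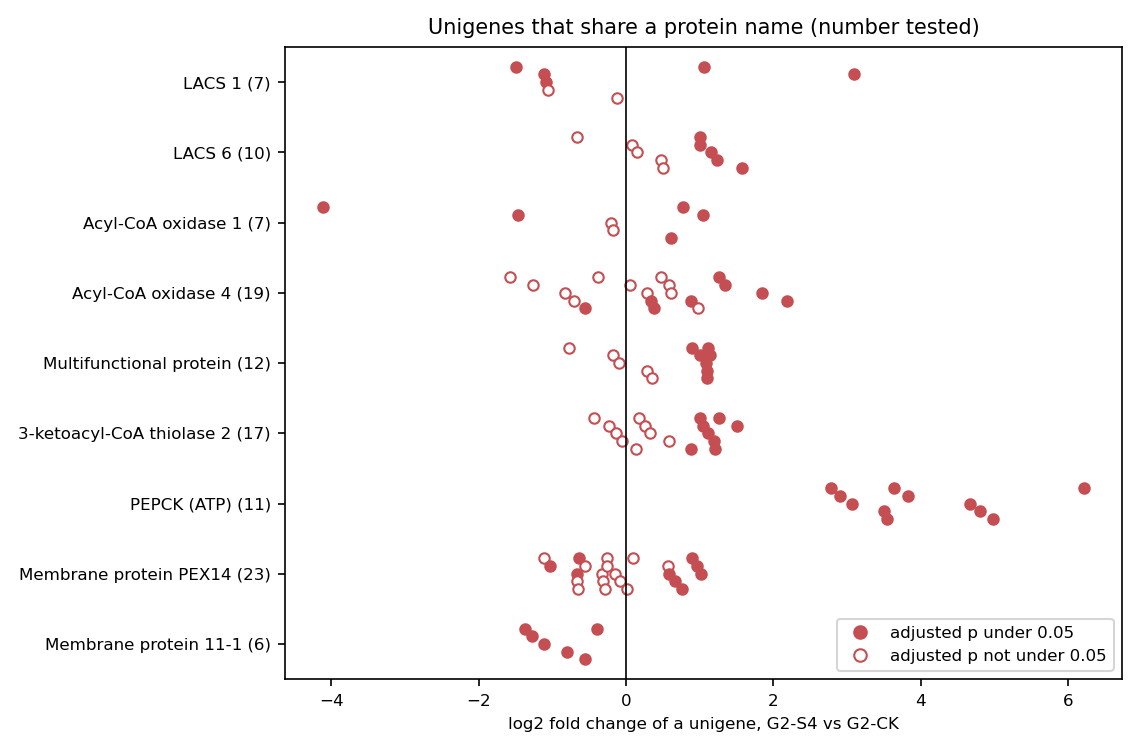
Log2 fold change of each tested unigene in G2-S4 versus G2-CK, within 9 Swiss-Prot names. Filled points have an adjusted p under 0.05 and open points do not. PEPCK, the multifunctional protein and thiolase 2 have called points only above 0, PMP11-1 only below 0, and ACX 1 and PEX14 on both sides.

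Most proteins that build the peroxisome differed little in transcript level between the groups. The peroxisome biogenesis names together held 669 ± 12.4 CPM in G2-CK, 675 ± 20.4 CPM in G2-S3 and 717 ± 54.7 CPM in G2-S4 (1.07-fold in G2-S4 over G2-CK). Of their 85 tested unigenes, 3 were higher and 6 lower in G2-S4 versus G2-CK, both below the shares of all unigenes, and the median was -0.04. PEX5, the receptor that brings enzymes with the C-terminal signal into the organelle, had 222 ± 25 CPM in G2-S4, against 183 ± 0.678 CPM in G2-CK (log2 fold change 0.28, adjusted p = 0.0201). This call passed in 4 of the 9 fits that left out 1 library and was lost without any 1 of the G2-CK libraries and without G2-S4 replicate 1 or 2. PEX7, the other import receptor, differed by 0.29 and did not pass with all libraries (adjusted p = 0.141). The log2 differences of PEX6, PEX2, PEX10, PEX22, PEX16 and PEX19-1 in G2-S4 versus G2-CK lay between -0.12 and 0.23, and none passed.

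The 2 forms of PEX3, a membrane anchor, differed by -0.30 and -0.22 in G2-S4 versus G2-CK and did not pass with all libraries. Among single unigenes, Cluster-14027.169259, a minor copy of PEX16, had 2.39, 1.82 and 2.94 FPKM in G2-CK, 0.64, 0.80 and 1.12 FPKM in G2-S3 and 0.58, 0.81 and 0.79 FPKM in G2-S4 (-1.57 in G2-S4, adjusted p = 0.00348). The G2-S3 call for that copy (-1.42, adjusted p = 0.0244) was lost without G2-CK replicate 1 or 3 and without G2-S3 replicate 1 or 2.

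The peroxisomal membrane proteins moved in both directions. PMP11-1 was the most abundant of them by reads, with 812, 906 and 762 CPM in G2-CK, 693, 692 and 693 CPM in G2-S3 and 512, 512 and 483 CPM in G2-S4. The groups did not overlap at any step of dose. It was lower in G2-S4 by 0.72 against G2-CK (0.607-fold, SE 0.08, adjusted p = 0.000108) and by 0.46 against G2-S3 (adjusted p = 0.00241), and the G2-S3 difference of -0.26 did not pass (adjusted p = 0.056). All 6 of its tested unigenes were lower in G2-S4 versus G2-CK, against 12.7% of all unigenes. Cluster-14027.161021 had 144.61, 173.47 and 145.30 FPKM in G2-CK, 95.22, 87.12 and 102.06 FPKM in G2-S3 and 59.42, 60.08 and 54.53 FPKM in G2-S4, a log2 fold change of -1.28 in G2-S4 versus G2-CK. Cluster-14027.155942 and Cluster-14027.158777 fell by 1.37 and 1.12 on that scale. The unigene with the highest level, Cluster-14027.158595, had 189.73, 221.31 and 178.44 FPKM in G2-S4, against 306.32, 356.55 and 289.42 FPKM in G2-CK (-0.56, adjusted p = 0.00584).

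The other PMP11 forms did not share 1 direction. PMP11-5 was higher in G2-S4 (55.3 ± 0.155 CPM, against 36.3 ± 2.92 CPM in G2-CK, 0.61, adjusted p = 0.000348), and its difference fell to 0.26 and no longer passed without its most abundant unigene. PMP11-4 was lower (28.3 ± 1.14 CPM, against 40.1 ± 7.23 CPM, -0.50, adjusted p = 0.0116). One of its unigenes, Cluster-14027.111893, had 2.40, 3.63 and 5.12 FPKM in G2-CK, 1 listed value, 2.63 FPKM, in G2-S3 and 1, 0.76 FPKM, in G2-S4, and its G2-S4 call (adjusted p = 0.0317) was lost without G2-CK replicate 2 or 3 or any 1 of the G2-S4 libraries. PMP11-3 was lower in both salt groups (-0.45 in G2-S4, adjusted p = 0.0148, and -0.47 in G2-S3, adjusted p = 0.0346). The G2-S4 call of PMP11-3 was lost without G2-CK replicate 3 or G2-S4 replicate 1, and the G2-S3 call passed in 3 of the 9 fits, namely with replicate 3 of G2-S3 or replicate 1 or 3 of G2-S4 left out.

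PEX14, the docking protein for the import receptors, was higher in its sum by the same amount in both salt groups. Its sum was 332 ± 10.1 CPM in G2-CK, 432 ± 11.7 CPM in G2-S3 and 430 ± 15.5 CPM in G2-S4 (log2 fold change 0.38 in each, adjusted p = 0.00129 in G2-S4 and 0.00789 in G2-S3). It kept these calls in every fit that left out 1 library. Of its 23 tested unigenes, 6 were higher (26.1%) and 3 lower (13.0%) in G2-S4 versus G2-CK, against 13.1% and 12.7% of all unigenes. Their median log2 fold change was -0.26 in that comparison, so the rise of the sum was not shared by most copies. The most abundant, Cluster-14027.160073, chosen after its values were seen, had 77.12, 70.65 and 70.50 FPKM in G2-CK, 133.82, 149.79 and 144.77 FPKM in G2-S3 and 141.59, 120.43 and 135.79 FPKM in G2-S4. PEX13 (listed as peroxisomal membrane protein 13), PMP22 and peroxisomal membrane protein 2 differed by -0.06, -0.21 and 0.29 in G2-S4 versus G2-CK and did not pass with all libraries. Over the whole membrane group, 7 of 67 tested unigenes were higher (10.4%) and 14 lower (20.9%) in G2-S4 versus G2-CK, against 13.1% and 12.7% of all unigenes, and the sum was 1490 ± 97.7 CPM in G2-CK, 1430 ± 2.78 CPM in G2-S3 and 1250 ± 40.9 CPM in G2-S4.

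**Figure D4:**
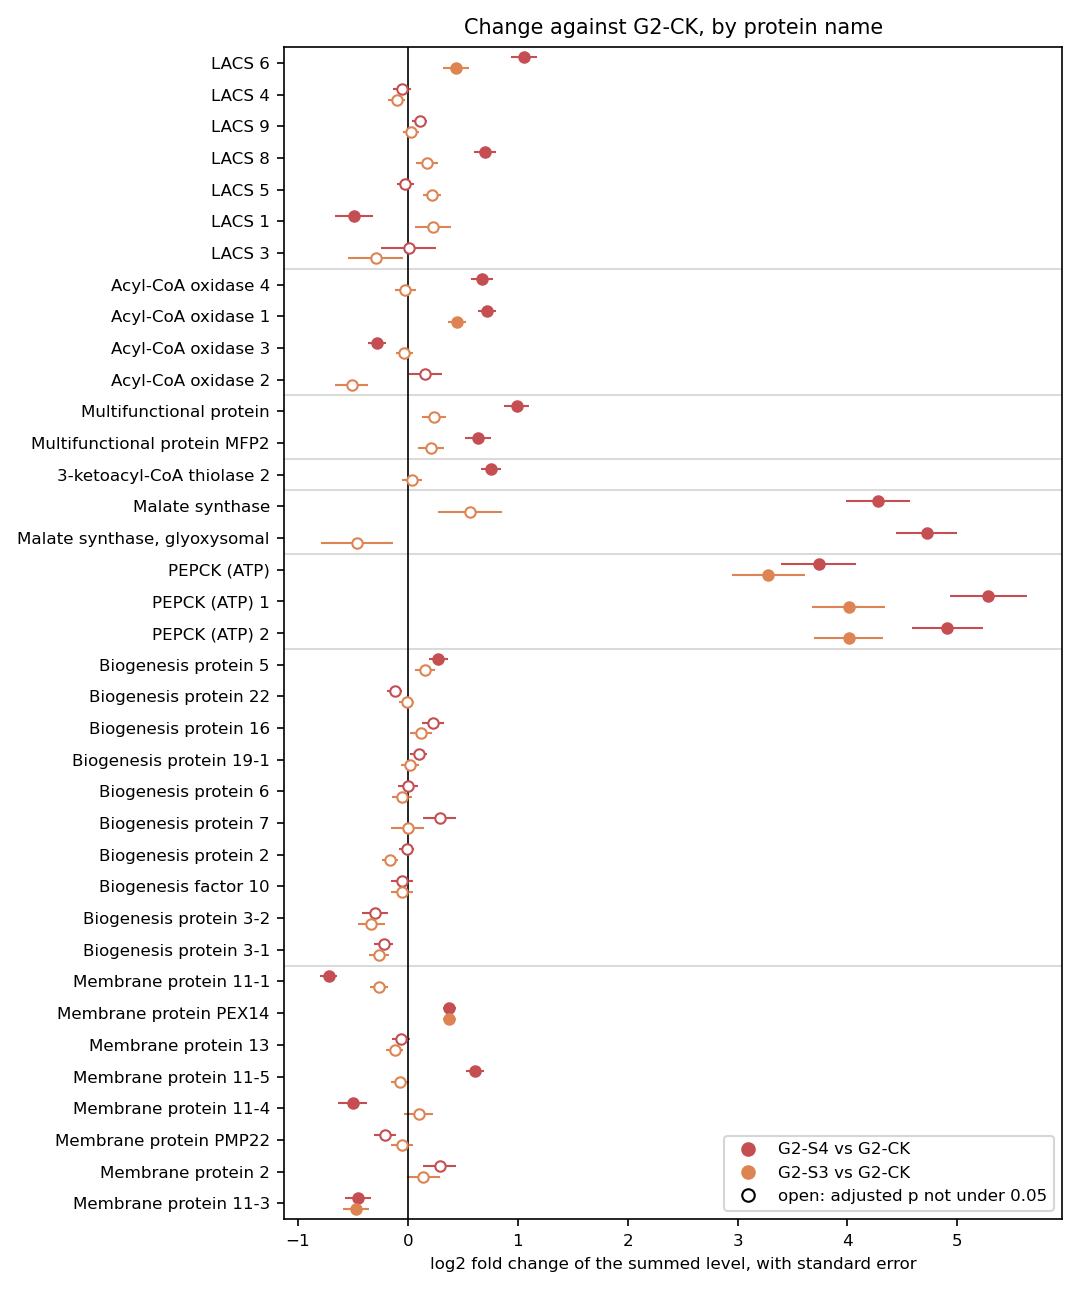
Log2 fold change ± SE of each summed name whose mean reached 1 CPM, in G2-S4 versus G2-CK and in G2-S3 versus G2-CK. Both comparisons share the G2-CK libraries, open points have an adjusted p that is not under 0.05, and isocitrate lyase, the isopropylmalate synthases and a few names that are not reported are left out. The PEPCK names stand far to the right at both doses, the malate synthases at G2-S4 only, and most biogenesis names lie near 0.

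The isopropylmalate synthases, found only through their name, were lower with salt. Form 2 averaged 103 ± 8.75 CPM in G2-CK, 80.9 ± 6.51 CPM in G2-S3 and 82.0 ± 3.14 CPM in G2-S4 (-0.34 in G2-S3, adjusted p = 0.0281, and -0.32 in G2-S4, adjusted p = 0.0116). Form A averaged 59.2 ± 10.4 CPM in G2-CK, 42.1 ± 5.54 CPM in G2-S3 and 37.5 ± 1.16 CPM in G2-S4 (-0.49 in G2-S3, adjusted p = 0.0376, and -0.66 in G2-S4, adjusted p = 0.00309). Both G2-S3 calls were lost without G2-CK replicate 1 or 2 and without G2-S3 replicate 1 or 2, and that of form A also without G2-S4 replicate 1 or 2.

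Enzymes that supply or partner the members formed a list of their own. Of 23 names tested, 12 were higher and 3 lower in G2-S4 versus G2-CK, and of 215 unigenes 51 were higher and 13 lower, with a median of 0.19. These are 52.2% and 13.0% of the names, against 31.6% and 20.0% of all names, and 23.7% and 6.05% of the unigenes, against 13.1% and 12.7% of all unigenes. Among the suppliers, the triacylglycerol lipase SDP1, which frees fatty acids from storage oil in Arabidopsis seedlings, was higher by 0.71 in G2-S4 (adjusted p = 0.000139) and 0.31 in G2-S3 (adjusted p = 0.0358). The peroxisomal ATP carrier PNC1 had 31.0, 29.0 and 27.1 CPM in G2-CK, 39.1, 43.4 and 32.2 CPM in G2-S3 and 104, 107 and 89.7 CPM in G2-S4. Its difference of 1.79 in G2-S4 had an adjusted p of 1.14e-05, while the peroxisomal NAD carrier differed by -0.02 and did not pass. Of the 3 lower names, the peroxisomal Delta(3,5)-Delta(2,4)-dienoyl-CoA isomerase differed by -0.34 in G2-S4 (adjusted p = 0.00789). The chloroplastic ABC transporter D family member 2 differed by -0.54 (adjusted p = 0.00572), and the glyoxysomal malate dehydrogenase is given below. SDP1L and enoyl-CoA hydratase 2 differed by -0.27 and 0.1 in G2-S4 and did not pass.

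Several partners of the glyoxylate cycle were higher too. Citrate synthase 3 and the glyoxysomal citrate synthase, which condense acetyl-CoA with oxaloacetate, were higher by 1.66 (adjusted p = 1.12e-05) and 0.92 (adjusted p = 5.19e-05) in G2-S4. The acetate activating enzyme AAE7 was higher by 1.21 in G2-S4 (adjusted p = 9.38e-05) and 0.98 in G2-S3 (adjusted p = 0.0028). The glyoxysomal malate dehydrogenase went the other way at extreme salt, with 1310 ± 120 CPM in G2-CK, 1630 ± 105 CPM in G2-S3 and 1090 ± 58.3 CPM in G2-S4 (0.32 in G2-S3, adjusted p = 0.0486, and -0.25 in G2-S4, adjusted p = 0.0461). Beyond PEPCK, pyruvate phosphate dikinase 1 and 2, which also form phosphoenolpyruvate, were higher by 2.18 and 2.37 in G2-S4, with adjusted p of 2.91e-05 and 2.51e-05. Enolase 2 and the cytosolic phosphoglycerate kinase were higher by 0.92 and 0.56, while enolase 1 and the chloroplastic enolase 1 differed by -0.03 and 0.76 and did not pass. The cytosolic fructose-1,6-bisphosphatase, a later step toward sucrose, differed by -0.25 and did not pass (adjusted p = 0.13). Of the 7 names of this gluconeogenesis list tested, 4 were higher in G2-S4 versus G2-CK (57.1%, against 31.6% of all names) and none lower. Of its 63 tested unigenes, 20 were higher (31.7%) and 6 lower (9.52%), against 13.1% and 12.7% of all unigenes.

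Other peroxisome enzymes and markers give the setting of these values. The photorespiratory enzymes GLO1, GLO5, HPR, GGAT1 and serine:glyoxylate aminotransferase were lower in G2-S4 versus G2-CK, by 0.97, 1.07, 1.10, 1.02 and 0.90 on the log2 scale. GLO3, a hydroxy-acid oxidase, was higher by 2.85, and catalase isozyme 1, catalase isozyme B and Catalase-1, which break down hydrogen peroxide, were higher by 1.96, 1.82 and 0.85. Catalase isozyme 3 was higher by 0.82 (adjusted p = 0.0222), while catalase isozyme A, GLO2 and GLO4 differed by 0.46, 0.82 and -0.11 and did not pass. Of the 122 tested unigenes of that list, 25 were higher (20.5%) and 49 lower (40.2%), against 13.1% and 12.7% of all unigenes, with a median of -0.41. The 6 names listed as senescing leaf markers did not share a direction. Of their 97 tested unigenes, 22 were higher (22.7%) and 23 lower (23.7%), against 13.1% and 12.7% of all unigenes. STAY-GREEN and SAG12 were higher by 2.06 and 0.91 in G2-S4, and SAG39 was lower, with 2730 ± 320 CPM in G2-CK, 1240 ± 192 CPM in G2-S3 and 364 ± 54.3 CPM in G2-S4. The summed level of the list was 3450 to 4270 CPM in G2-CK, 2230 to 2620 CPM in G2-S3 and 1800 to 2370 CPM in G2-S4. The oil-storing seed markers summed to 209 to 237 CPM in G2-CK, 194 to 240 CPM in G2-S3 and 214 to 261 CPM in G2-S4 (3 of 20 unigenes higher and 2 lower in G2-S4 versus G2-CK). Of the 8 names of that list tested, 3 were higher and none lower, 37.5% against 31.6% of all names. Oil body-associated protein 2A had 3.13, 1.76 and 1.15 CPM in G2-S4 and was unlisted in all other libraries. The 11S globulin seed storage protein 2 was higher by 0.52 (adjusted p = 0.0133). The vicilin-like seed storage protein, at 1.25 ± 0.0166 CPM in G2-CK and 2.36 ± 0.683 CPM in G2-S4, was higher by 0.93 (adjusted p = 0.0279). The most abundant name, Probable peroxygenase 5, had 151 ± 12.9 CPM in G2-CK and 145 ± 20 CPM in G2-S4 and did not pass (-0.05). Peroxygenase, Peroxygenase 1 and Probable peroxygenase 4 differed by 0.01, -1.92 and -0.2 and did not pass. The oleosins that define oil bodies were low, the highest being Oleosin 16 kDa with 3.71 ± 0.531 CPM in G2-CK, 2.29 ± 0.407 CPM in G2-S3 and 2.49 ± 0.324 CPM in G2-S4. It differed by -0.57 in G2-S4 versus G2-CK and did not pass (adjusted p = 0.0532). The part of these marker changes in the members' values was not tested.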

How the data were processed

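RNA of 9 leaf samples was sequenced by the study after oligo(dT) selection. Per the labels and the study's methods, the authors called bases with CASAVA 1.8, assembled transcripts with Trinity, clustered them with Corset, mapped reads with bowtie2 and counted them with RSEM. The deposited lists give estimated counts (expected counts) and FPKM by unigene, with Swiss-Prot and Nr hits, and the authors left out unigenes at or below 0.3 FPKM, 36.8% of all unigene and library pairs. Strand was not stated, so antisense reads cannot be told apart. No genome or sequence was used here.

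Expected counts were rounded, and a missing value was set to the count its limit allows (median 2.12 reads). Library totals were fitted from counts, FPKM and lengths. edgeR 4.0.16 (R 4.3.3, limma 3.58.1) with filterByExpr at a minimum count of 10, TMM factors of 0.94 to 1.06 and group means over all 9 libraries gave quasi-likelihood tests, with Benjamini-Hochberg adjustment over all unigenes tested. Swiss-Prot names were tested likewise on summed counts with missing values as 0. Python 3.11.15 with pandas 2.3.3 made the sums and CPM. On simulated data with few changed unigenes, the tests made few wrong calls and missed most of the changes. Far more unigenes were called in G2-S4 versus G2-CK, so the simulation does not give the share missed in these data. A value that did not pass is not shown to be unchanged. The study's methods describe single rhizomes per pot, a randomised block layout and biological replicates, but the labels tie no replicate number to a pot or block, so p-values measure the spread between these samples of 1 clone.

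The members and lists were chosen with earlier results of these data known. Named unigenes were the most abundant of each term and, among called members whose log2 CPM averaged 1 or more and whose groups do not overlap, the 8 largest changes in each direction in G2-S4 versus G2-CK and the 3 largest in each of the other comparisons. A name whose sum averaged 1 CPM or more could be named. Alternatives were other treatments of missing values, RLE factors, DESeq2 1.42.0, no filter, only the 6 libraries compared, each library left out, a replicate block, a fold limit, and sums without the most abundant unigene or without hits outside the green plants. A few names are not reported here.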

Additional observations from a re-analysis of the deposited data

How the results depend on the processing

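With a log2 fold limit of at least 1, the member unigenes called were 19 in G2-S3 versus G2-CK, 58 in G2-S4 versus G2-CK and 30 in G2-S4 versus G2-S3, against 31, 102 and 62 without it. With only the 6 libraries compared, G2-S3 versus G2-CK gave 19. Leaving out 1 library gave 17 to 43, 82 to 104 and 38 to 56 unigenes, and 5 to 14, 20 to 25 and 14 to 19 names. The first count fell by over 1.5 times without G2-CK replicate 2 (19) or 3 (18) or G2-S3 replicate 1 (17) or 2 (18), and the G2-S4 versus G2-S3 count without G2-S3 replicate 1 (38) or G2-S4 replicate 2 (38). The names called in G2-S3 versus G2-CK were 10 with all libraries, 5 without G2-CK replicate 1 or 2 or G2-S3 replicate 1 or 2, 6 without G2-S4 replicate 2, and 5 without the most abundant unigene of each name. That last setting also turned the sum of acyl-CoA oxidase 2 to -0.81 in G2-S4 versus G2-CK and -0.16 in G2-S4 versus G2-S3. The cause of these changes was not tested. DESeq2 called 33, 96 and 67 unigenes and 12, 27 and 19 names (15 higher and 12 lower in G2-S4 versus G2-CK, against 16 and 7), with the median of all names in G2-S4 versus G2-CK shifted by -0.10. The replicate block called 23, 95 and 51 unigenes and 7, 23 and 16 names. Libraries that share a replicate number deviated with correlations of -0.107 to 0.039, and other pairs with -0.063 to 0.091, so the numbers were not taken to pair the samples. Values under 0.3 FPKM cannot be compared, so for isocitrate lyase only bounds can be given.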
